A study of Mus musculus with 6 samples.

Results

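Elastic and oxytalan fibre genes are described here in cells sorted from the mouse dental follicle. The set is the 10 gene symbols Fbn1, Fbn2, Eln, Fbln1, Fbln2, Fbln5, Efemp1, Efemp2, Mfap2 and Mfap5, taken from the deposited count table by symbol alone. All 10 were among its 17213 genes, and all 10 passed the filter on low counts that left 14632 genes for testing. The comparison sets 3 libraries labelled Het, with the genotype Pth1r(+/-), against 3 labelled KO, with the genotype Pth1r(-/-). Pth1r is the receptor of parathyroid hormone and of the related peptide PTHrP. The series text calls these the conditional heterozygote and the conditional knockout, so every library carries at least 1 altered Pth1r allele and none is from a wild-type animal. All 6 come from mandibular molars of mice at postnatal day 8, and the cells are labelled as PTHrP+ and were sorted for the red reporter tdTomato. Tamoxifen, which starts the deletion, was given at postnatal day 3 according to the series text and at day 8 according to the sample descriptions. The sources used here do not give the Cre driver, the strain or the number of animals per library.

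Elastic fibres consist of an elastin core laid on a scaffold of fibrillin microfibrils. Fibulins and microfibril-associated glycoproteins join the parts, and lysyl oxidases crosslink the elastin. Oxytalan fibres are bundles of microfibrils with no elastin core, and they are the main fibre of this system in the periodontal ligament, which the dental follicle forms.

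The sort and the labels were checked before the genes. Total counts ran from 34019925 to 66147200 per library. Pth1r (chromosome 9, 110722085 to 110747145, minus strand, mm10) went against the labels, with 371, 286 and 346 CPM under the Het label against 961, 608 and 472 CPM under the KO label. CPM here is the count scaled to a common library size by TMM. Pth1r exons share 95 bases with Myl3 on the opposite strand, whose reads cannot be told apart without the strand. The Pth1r log2 fold change of 1.02 (standard error 0.28) had an adjusted p of 0.740 in edgeR's quasi-likelihood test, and the counts do not show which exons were read. Directions below are therefore those of the labels only. All 8 markers of follicle mesenchyme, among them Pthlh, Wif1, Postn and Runx2, had counts in both groups. Their summed level was 22630 to 52940 CPM in the libraries labelled Het and 38805 to 67588 CPM in those labelled KO. Col1a1 and Col3a1, also in this list, made up most of the sum in every library. The sum therefore reads mainly these collagen genes. Wif1, next in level, had means of 3001 CPM under the Het label and 2905 CPM under the KO label. The list also holds Pth1r, the targeted gene. The 8 enamel epithelium markers summed to 5281 to 8513 CPM and 5188 to 10839 CPM, so RNA of epithelium was present in every library. Het replicate 2 stood apart on the first principal component, which held 38.6% of the variance. Xist, which marks an inactive X chromosome, was near 0 in Het replicate 0 (0.145 CPM) and KO replicate 1 (0.230 CPM) and at 23.7 to 78.4 CPM elsewhere.

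Promoter sequences were examined for 7 of the 10 genes, not for Fbn2, Eln or Mfap5, in 12 windows (RefSeq, GRCm38.p6). Those of 3 short fibulins are shown, because Efemp1 and Fbln5 were lower in every library labelled KO while the values of Efemp2, the most abundant fibulin gene per length, overlapped. Each is the 250 bases before a transcription start, 5′ to 3′ on the strand of the gene. Capitals mark GGGCGG, the SP1 box, and TGACG, the core of the cAMP response element through which protein kinase A signalling reaches genes, on either strand.
Efemp1, chr11:28852955-28853204, plus strand: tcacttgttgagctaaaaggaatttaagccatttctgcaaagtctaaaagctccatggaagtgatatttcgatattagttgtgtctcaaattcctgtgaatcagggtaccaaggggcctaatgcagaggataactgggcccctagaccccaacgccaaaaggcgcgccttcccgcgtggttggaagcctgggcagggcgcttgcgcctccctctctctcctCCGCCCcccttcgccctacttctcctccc
Fbln5, chr12:101819120-101819369, minus strand: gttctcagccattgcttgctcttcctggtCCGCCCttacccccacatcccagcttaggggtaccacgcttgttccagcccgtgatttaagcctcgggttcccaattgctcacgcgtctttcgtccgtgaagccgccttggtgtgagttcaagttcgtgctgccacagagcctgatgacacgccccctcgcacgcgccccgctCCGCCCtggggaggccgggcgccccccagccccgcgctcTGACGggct
Efemp2, chr19:5473696-5473945, plus strand: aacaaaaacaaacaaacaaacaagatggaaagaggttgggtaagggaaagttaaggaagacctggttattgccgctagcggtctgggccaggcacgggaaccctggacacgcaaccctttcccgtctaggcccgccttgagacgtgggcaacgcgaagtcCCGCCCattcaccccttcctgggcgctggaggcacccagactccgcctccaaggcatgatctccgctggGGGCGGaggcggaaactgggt
The Efemp1 window held 1 SP1 box and no TGACG. The Fbln5 window held 2 SP1 boxes and 1 TGACG, whose first base lies 9 bases before the start. The Efemp2 window held 2 SP1 boxes, no TGACG, and 2 copies of CAGAC, the Smad box, which is not capitalised. Fbln5 and Efemp2 have further starts, whose windows are not shown. The further Efemp2 windows overlap and held the same 5 SP1 boxes, some of which overlap each other. They held no TGACG and no CAGAC. The further Fbln5 window held no SP1 box, 1 TGACG and 2 copies of CAGAC. Differences between the genes in these letters therefore depend on the start chosen. Over all 32851 RefSeq windows of this length, 32.7% held an SP1 box, 17.8% held TGACG and 42.2% held CAGAC. The full cAMP response element TGACGTCA was in none of the 3 windows shown and in 1.55% of all windows. These matches describe letters, and no measurement here bears on binding.

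Per transcript length, the microfibril-associated glycoprotein gene Mfap2 was by far the most abundant of the set. It ran from 841 to 1453 FPKM over the 6 libraries with a median of 1225 FPKM, and made up 60.3% to 69.5% of the summed FPKM of the 10 genes. Efemp2, a fibulin that recruits lysyl oxidase to elastin, followed at 262 to 324 FPKM. Fbln1, a fibulin found in elastic fibre cores, was at 128 to 173 FPKM. These 3 did not overlap in range with each other or with the gene next below. Fbln5 at 27.9 to 55.8 FPKM, Fbln2 at 25.8 to 51.0 FPKM and Fbn2 at 24.0 to 39.3 FPKM formed a middle tier with overlapping ranges. Fbn1 at 14.8 to 34.0 FPKM, Eln at 13.2 to 24.7 FPKM and Mfap5 at 6.41 to 26.8 FPKM followed, each range again overlapping the next. Efemp1 was lowest, at 0.924 to 6.27 FPKM, and stood below the Mfap5 range. Fbn2, the fibrillin best known from developing tissue, exceeded Fbn1, the main adult fibrillin, in 6 of 6 libraries on the FPKM scale. Fbn1 exceeded Eln in 4 of 6, the exceptions being KO replicates 0 and 2.

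**Figure D1:**
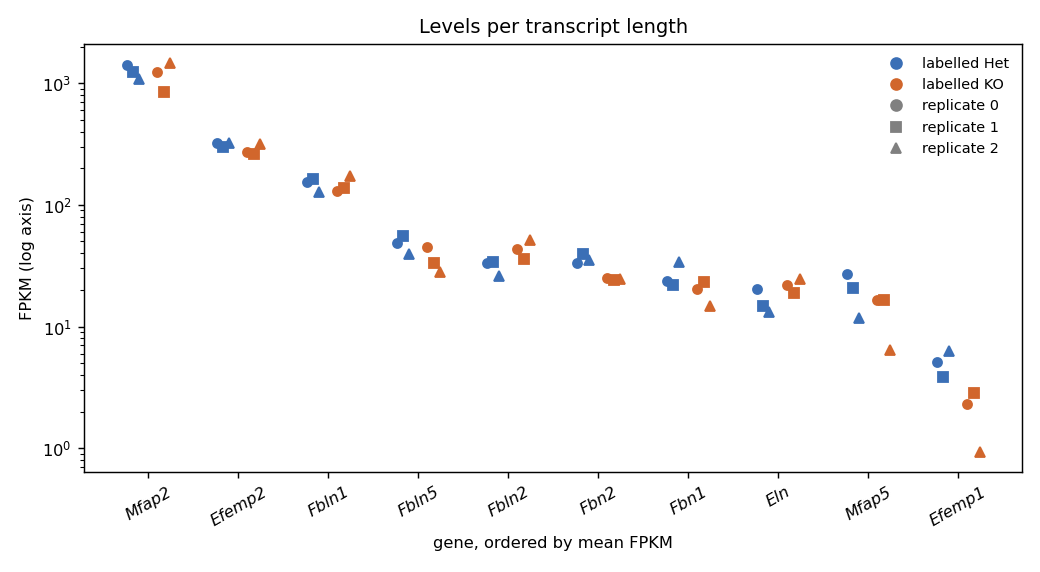
FPKM of the 10 genes (log axis), ordered by mean, with 1 point per library, colour for the label and shape for the replicate number. Mfap2 lies between 841 and 1453 FPKM in all 6 libraries, and Efemp1 lies below every Mfap5 value.

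Between the groups, 5 of the 10 genes had values that did not overlap. Fbn2, Fbln5 and Efemp1 were lower in all 3 libraries labelled KO than in any labelled Het, and Eln and Fbln2 were higher. Over all genes tested, 10.7% had groups that did not overlap, 4.83% with KO lower and 5.84% with KO higher. None of the 10 passed edgeR's quasi-likelihood test over all genes at an adjusted p of 0.05, where the background was 0% of the 14632 genes. At an unadjusted p under 0.05 stood 3 members, Fbn2, Efemp1 and Fbln5, all lower, against 4.29% of all genes and 1.71% with KO lower. DESeq2 called 0.509% of its genes and none of the 10. Fitted values were lower for 8 members and higher for 2, with a median log2 fold change of -0.31, against -0.0095 over all genes tested. Of all genes tested, 7469 had lower and 7163 higher fitted values. The members were chosen with earlier results of these data known, so these comparisons with all genes only describe the set. Each library is 1 titled sample, and no label says that they came from separate animals, so p-values measure only how far these samples spread, and part of that spread may be technical. Xist was near 0 in 1 library of each label and not in the others, so the libraries of a label were not all made from the same animals.

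**Figure D2:**
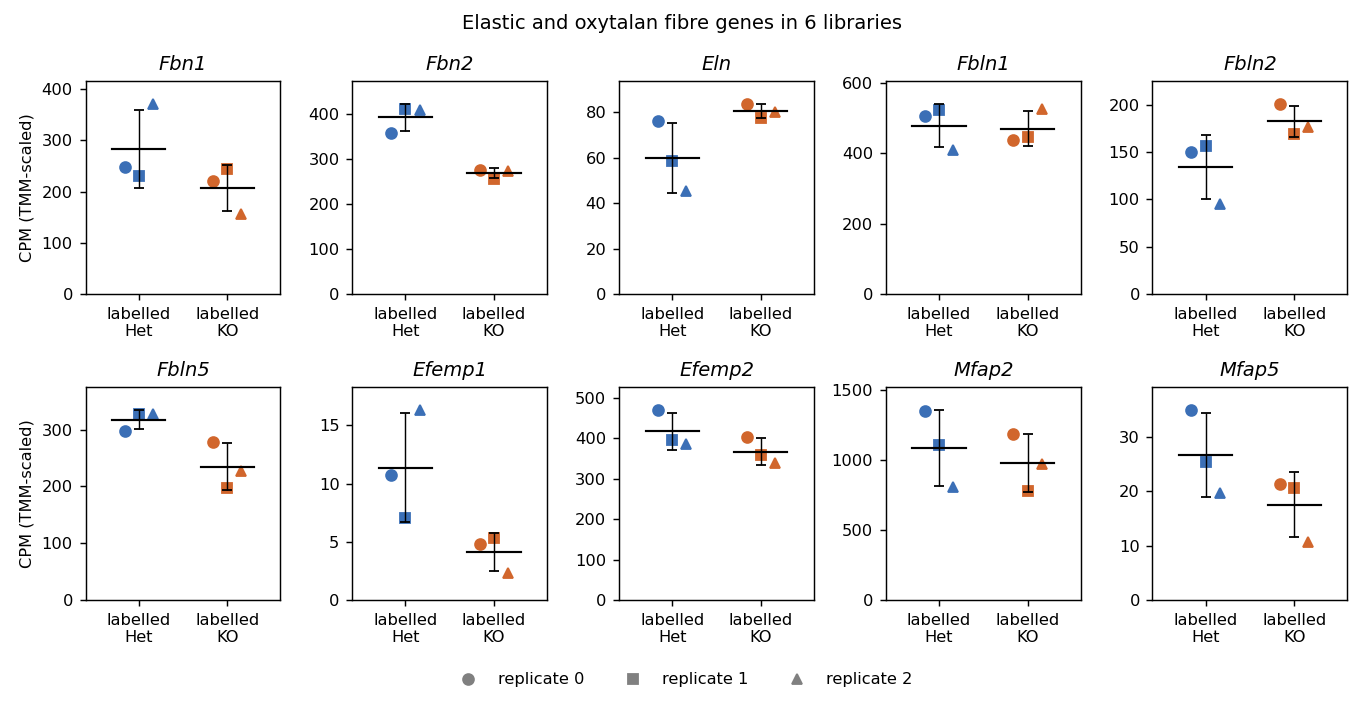
CPM of each gene in the 3 libraries labelled Het and the 3 labelled KO, with mean (bar) and SD (whisker, n = 3), on axes from 0. For Fbn2 the libraries labelled KO lie between 255 and 275 CPM, and those labelled Het between 357 and 409 CPM.

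The fibrillins build the microfibril itself. Exons of Fbn1, Fbn2 and Eln share 2442, 129 and 267 bases with opposite-strand genes of GENCODE, whose reads cannot be told apart without the strand. Fbn2 (chromosome 18, 58008623 to 58210487, minus strand) was at 357, 409 and 408 CPM in replicates 0, 1 and 2 of the Het label and at 275, 255 and 274 CPM in replicates 0, 1 and 2 of the KO label. The 3 KO-labelled values lay close together and well below the lowest labelled Het. Mean levels were 391 ± 30.1 and 268 ± 11.0 CPM (SD, n = 3). The fitted log2 difference for Fbn2 was -0.55 (standard error 0.17), with an adjusted p of 0.938 in edgeR and of 0.0846 in DESeq2. The exact two-sided permutation test gave p = 0.1, the smallest that 3 against 3 allows. Leaving out any 1 library kept the Fbn2 value between -0.62 and -0.51. Fbn1 (chromosome 2, 125300594 to 125507993, minus strand) was at 249, 230 and 371 CPM against 221, 244 and 157 CPM, and the groups overlapped. Its log2 fold change of -0.45 (standard error 0.25, edgeR adjusted p = 0.976) was -0.20 when Het replicate 2 was left out and -0.29 when KO replicate 2 was. The ratio of Fbn2 to Fbn1 counts was 1.43, 1.78 and 1.10 in the libraries labelled Het and 1.24, 1.05 and 1.75 in those labelled KO, which overlapped (log2 difference -0.10, exact permutation p = 0.7).

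Elastin is the stretchable core protein, and its transcript was higher under the KO label. Eln (chromosome 5, 134702593 to 134747323, minus strand) was at 76.1, 58.7 and 45.2 CPM under the Het label and at 83.8, 77.7 and 80.3 CPM under the KO label. The libraries labelled KO were nearly level, while those labelled Het spread widely, with Het replicate 0 just below the lowest labelled KO. Mean levels were 60.0 ± 15.5 and 80.6 ± 3.04 CPM (SD, n = 3). Its log2 fold change of 0.43 (standard error 0.22, edgeR adjusted p = 0.976) was 0.26 without Het replicate 2 and 0.66 without the 2 libraries with Xist near 0. On the FPKM scale the Eln groups overlapped, with Het replicate 0 at 20.2 FPKM and KO replicate 1 at 19.0 FPKM.

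The balance of elastin to fibrillin was read within each library, where the scaling between libraries has no part. Eln counts were 0.305, 0.255 and 0.122 of Fbn1 counts in the libraries labelled Het and 0.379, 0.319 and 0.513 in those labelled KO. All 3 libraries labelled KO were above all labelled Het. The log2 difference was 0.90, a ratio 1.87-fold higher, with an exact permutation p of 0.1, or 0.3 adjusted over the 3 ratios compared. Without Het replicate 2, the lowest, the log2 difference was 0.50, and with a ratio of FPKM the groups overlapped, at 0.859, 0.667 and 0.389 against 1.07, 0.824 and 1.67.

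**Figure D3:**
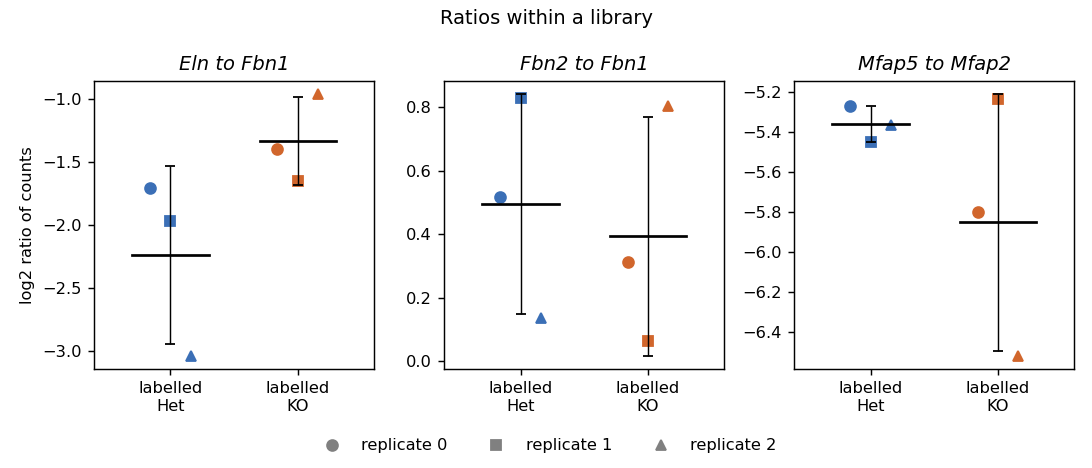
Log2 ratio of counts within each library for Eln to Fbn1, Fbn2 to Fbn1 and Mfap5 to Mfap2, with mean (bar) and SD (whisker, n = 3). For Eln to Fbn1 the 3 libraries labelled KO lie above the 3 labelled Het, and the other ratios overlap.

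Fibulins bind fibrillin, tropoelastin or both. Among the short fibulins, Efemp1 (chromosome 11, 28853204 to 28926743, plus strand), a fibulin of thin elastic fibres and basement membranes, was at 10.7, 7.04 and 16.3 CPM under the Het label and at 4.86, 5.36 and 2.30 CPM under the KO label. No KO-labelled value reached the lowest Het-labelled one. It had the largest fitted difference of the set and the lowest counts, 121 to 666 per library. Its means were 11.4 ± 4.67 and 4.17 ± 1.64 CPM (SD, n = 3), with a log2 fold change of -1.44, a standard error of 0.48 and an edgeR adjusted p of 0.976. With any 1 library left out, the Efemp1 value stayed between -1.69 and -1.08.

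Fbln5 (chromosome 12, 101746565 to 101819055, minus strand), which carries tropoelastin onto microfibrils and binds integrins, was at 297, 327 and 328 CPM against 279, 197 and 227 CPM. Here KO replicate 0 lay only a little below the lowest library labelled Het. The means were 317 ± 17.1 and 234 ± 41.2 CPM (SD, n = 3), for a log2 fold change of -0.44 (standard error 0.19, edgeR adjusted p = 0.976). On the FPKM scale the groups overlapped, since KO replicate 0 was at 45.2 FPKM and Het replicate 2 at 39.8 FPKM. Efemp2 (chromosome 19, 5473954 to 5482517, plus strand) was at 470, 395 and 387 CPM against 403, 359 and 339 CPM. Those groups overlapped, with a log2 fold change of -0.18 and a 95% interval of -0.59 to 0.22, and the Efemp2 value was -0.097 without Het replicate 0. Its exons share 173 bases with Mus81 on the opposite strand, and such reads cannot be told apart without the strand. Mus81 is in the count table, unlike the genes that overlap Fbn1, Fbn2 and Eln.

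Of the longer fibulins, 1 had groups apart. Fbln2 (chromosome 6, 91212455 to 91272540, plus strand), which sits at the interface of microfibril and elastin, was at 150, 156 and 95.1 CPM under the Het label and at 201, 170 and 177 CPM under the KO label. Every library labelled KO was higher than every library labelled Het, also in FPKM. Means were 134 ± 33.8 and 182 ± 16.4 CPM (SD, n = 3), with a log2 fold change of 0.45 and a standard error of 0.22 (edgeR adjusted p = 0.976). Without Het replicate 2 the Fbln2 value was 0.25. Fbln1 (chromosome 15, 85205949 to 85286535, plus strand) was at 506, 522 and 409 CPM against 437, 446 and 527 CPM. Its log2 fold change of -0.027 had a 95% interval of -0.46 to 0.40 and changed sign in 5 of 17 other fits.

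The microfibril-associated glycoproteins bind fibrillin along the microfibril surface. Mfap2 (chromosome 4, 141010418 to 141015984, plus strand) was at 1348, 1108 and 809 CPM against 1187, 777 and 973 CPM. The groups overlapped almost fully, with a log2 fold change of -0.15 and a 95% interval of -0.72 to 0.42, and the value was 0.020 without Het replicate 0 and -0.0099 without KO replicate 1. CPM and FPKM did not order the Mfap2 libraries alike, since KO replicate 2 had the highest FPKM, at 1453, while Het replicate 0 had the highest CPM. Mfap5 (chromosome 6, 122505845 to 122529290, plus strand) was at 34.9, 25.3 and 19.6 CPM against 21.3, 20.6 and 10.6 CPM, with a log2 fold change of -0.61 and a standard error of 0.34. Its groups overlapped through Het replicate 2, and leaving out Het replicate 0 gave -0.37 and leaving out KO replicate 2 gave -0.35. The ratio of Mfap5 to Mfap2 counts overlapped between the groups (log2 difference -0.49, exact permutation p = 0.4), a difference that was -0.16 without KO replicate 2 and -0.80 without KO replicate 1 (exact permutation p = 0.1, the smallest that 2 against 3 allows).

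**Figure D4:**
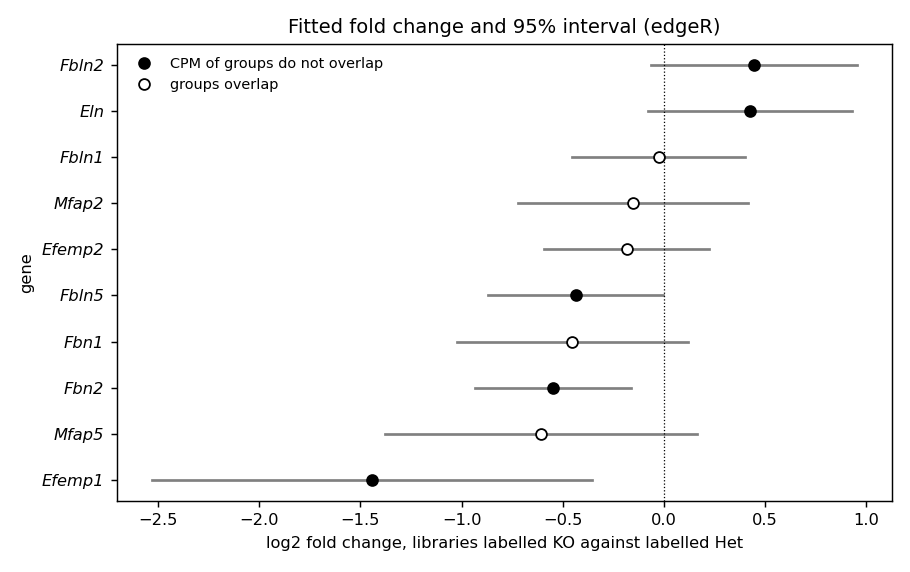
Log2 fold change of each gene, libraries labelled KO against libraries labelled Het, with its 95% interval from edgeR. Filled points are the 5 genes whose CPM did not overlap, and the intervals of Fbn2, Fbln5 and Efemp1 lie below 0 before any adjustment for the number of genes.

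Markers of other cell types were read beside these genes. Smooth muscle and pericyte markers summed to 1083 to 1210 CPM in the libraries labelled Het. In those labelled KO they summed to 780 to 883 CPM, with no overlap. Acta2 and Tagln carried that difference, since the other 8 markers summed to 220, 297 and 186 CPM against 218, 254 and 171 CPM, which overlapped. Of the 10 markers 9 were tested, 7 with lower and 2 with higher fitted values, and none passed edgeR over all genes. Marker genes are named here after their values were seen. The smooth muscle actin gene Acta2 was at 746 ± 58.7 against 527 ± 40.9 CPM and Tagln at 168 ± 36.8 against 87.5 ± 6.95 CPM (SD, n = 3), and Tagln passed in DESeq2 (adjusted p = 0.00886). Cnn1 was at 31.2 ± 15.4 against 15.3 ± 2.31 CPM and Myh11 at 47.4 ± 11.7 against 26.5 ± 17.2 CPM (SD, n = 3). Both had lower fitted values and groups that overlapped in CPM, with a log2 fold change of -1.02 for Cnn1 and -0.83 for Myh11. In FPKM the Myh11 groups were apart. The pericyte genes Rgs5, Notch3, Kcnj8, Abcc9 and Cspg4 all overlapped, and the fitted values of Rgs5 and Cspg4 were higher under the KO label, Cspg4 at 33.5 ± 14.4 against 60.3 ± 24.9 CPM (SD, n = 3). Des, also in this list, had 0 CPM in all libraries labelled Het and at most 0.495 CPM in those labelled KO. The 8 endothelial markers were low in both groups, and their sums did not overlap, at 15.4 to 20.1 CPM and 6.17 to 12.9 CPM. Of these 8, 6 had lower and 2 higher fitted values. The groups were apart for Pecam1 and Kdr alone, against 10.7% of all genes tested. The 4 of 6 skeletal muscle markers in the table summed to 3.20 to 8.60 CPM and 2.31 to 2.83 CPM. The sums of 6 osteoblast and odontoblast markers, nearly all from Ibsp, overlapped, at 3427 to 10766 CPM and 10441 to 17842 CPM. Of these 6, 5 had higher fitted values, 3 of them at an unadjusted p under 0.05, and none passed edgeR. Over all 14632 genes tested, 378 were higher at that unadjusted p. The marker lists were chosen with earlier results known, so such counts only describe them. Dmp1, a matrix protein gene of osteocytes and odontoblasts, was at 72.4, 29.0 and 84.8 CPM under the Het label and at 536, 248 and 138 CPM under the KO label. Its groups were apart, with a log2 fold change of 2.31 (standard error 0.54, edgeR adjusted p = 0.634), and it passed in DESeq2 (adjusted p = 0.00146). The sums of 8 macrophage and leukocyte markers also overlapped, at 19.0 to 87.8 CPM and 26.4 to 138 CPM, and the 4 of 6 erythroid markers in the table, at 32.4 to 103 CPM and 43.4 to 129 CPM. All 8 macrophage and leukocyte markers had higher fitted values, as did 7163 of the 14632 genes tested. None of the 8 had groups apart or an unadjusted p under 0.05. The part of these cells in the values of Fbn2, Fbln5, Efemp1, Eln and Fbln2 was not tested. In such pooled RNA, fewer cells of a type and less RNA per cell cannot be told apart.

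Of 44 other genes of fibre assembly, in 6 lists, 43 were in the table, 42 were tested and none passed edgeR over all genes. DESeq2 called 2 of the 43, Loxl4 and Elane. Fitted values were higher for 17 and lower for 25, and the median log2 fold change was -0.053. The groups did not overlap in CPM for 3 of the 42, Loxl4, Fbln7 and Mmp9, against the 10.7% of all genes given above. The list examples that follow are the 2 genes of each list with the smallest unadjusted p, and they are values that did not pass.

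Proteins at the microfibril surface, such as latent TGF-beta binding proteins and emilins, had 8 of 11 fitted values lower. Fbln7, a further fibulin, was at 40.0, 27.7 and 45.6 CPM against 22.9, 20.8 and 18.7 CPM, with a log2 fold change of -0.86 (standard error 0.25, edgeR adjusted p = 0.855). The hemicentin gene Hmcn1, a large relative of the fibulins, was at 40.9, 65.5 and 73.1 CPM against 31.4, 42.7 and 22.7 CPM, with overlap. The crosslinking enzymes had 3 of 5 fitted values higher. Loxl4, a lysyl oxidase-like enzyme, was at 19.6, 6.04 and 8.68 CPM against 83.1, 54.6 and 31.3 CPM. Its log2 fold change of 2.29 (standard error 0.50) had an adjusted p of 0.634 in edgeR, and it passed in DESeq2 (adjusted p = 0.00137). Lox, which crosslinks elastin and collagen, was at 155 ± 46.5 against 257 ± 73.1 CPM (SD, n = 3), and the groups overlapped.

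Proteases that can cut elastic fibres had 4 of 6 tested members higher in fitted value. Mmp9, a gelatinase that also cuts elastin, was at 24.6, 32.1 and 25.6 CPM against 44.6, 36.7 and 37.3 CPM, with a log2 fold change of 0.53 and a standard error of 0.21 (edgeR adjusted p = 0.976). The lysosomal protease gene Ctsl was at 312 ± 93.0 against 269 ± 16.9 CPM (SD, n = 3). Elane, the neutrophil elastase gene, did not pass the filter on low counts and had 6, 2378 and 1202 counts against 6, 3 and 2, so its level rested on Het replicates 1 and 2. DESeq2, run without that filter, gave it an adjusted p of 0.000212. Mmp12 was not analysed here.

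The lists for microfibril processing, elastin chaperone and receptor, and fibrillin- or fibulin-binding integrins had no gene with groups apart in CPM. On the FPKM scale, Furin of the first list and Itgb6 of the third were higher in every library labelled KO. In the first, Furin, the convertase that trims profibrillin, was at 119 ± 58.6 against 193 ± 36.9 CPM and Adamtsl3 at 9.87 ± 5.46 against 6.36 ± 0.822 CPM (SD, n = 3). In the second, Ctsa, a subunit of the elastin receptor complex, was at 258 ± 136 against 191 ± 33.9 CPM, and the chaperone gene Fkbp10 at 733 ± 244 against 909 ± 196 CPM. The Ctsa log2 fold change of -0.44 was 0.085 without Het replicate 2. In the third, Itgb6 was at 3.63 ± 2.23 against 6.98 ± 2.66 CPM and Itgb5 at 1101 ± 141 against 944 ± 117 CPM (SD, n = 3).

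**Figure D5:**
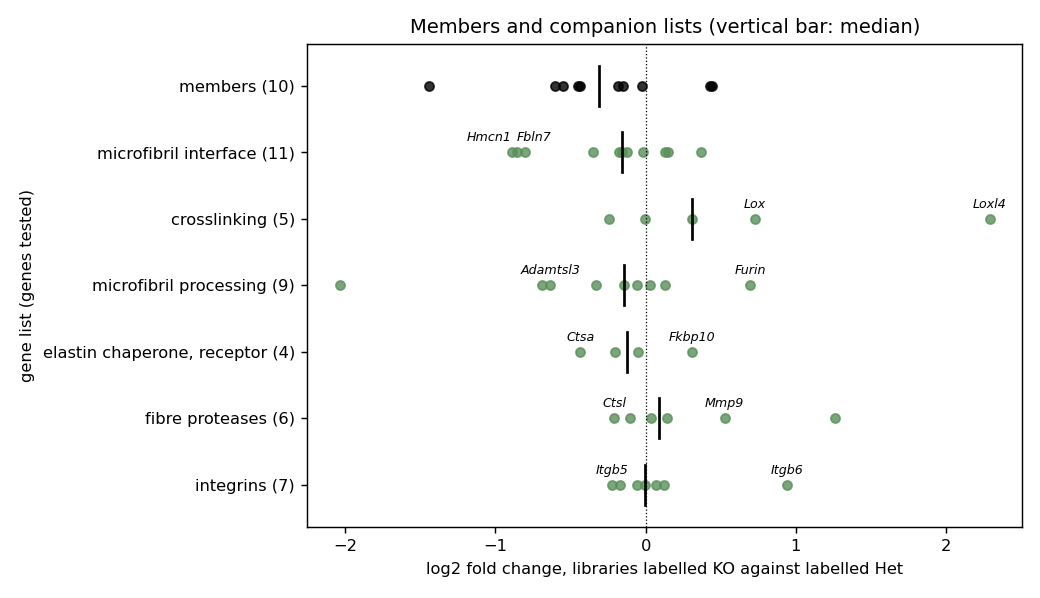
Log2 fold changes (edgeR, libraries labelled KO against labelled Het) of the 10 fibre genes and of the tested genes of 6 companion lists, with the list median as a vertical bar and the 2 genes of smallest unadjusted p named in each companion list. Loxl4 lies farthest to the right at 2.29, and the median of the 10 fibre genes is -0.31.

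Profiles most like those of 2 members were sought over the 6 libraries, as the root-mean-square distance between log2 CPM values centred on each gene's own mean, among 10511 named genes whose mean log2 CPM reached 2. Nearest to Fbn1 were Fap, a protease gene of activated fibroblasts, Fosl2 and Efha2, at distances of 0.078, 0.081 and 0.093 on the log2 scale. Like Fbn1, Fap was highest in Het replicate 2, at 33.8 CPM, and lowest in KO replicate 2, at 14.5 CPM. Nearest to Eln were Bcl2l13, Nlrx1 and Klhdc4, at 0.056, 0.064 and 0.065, and all 3 were lowest in Het replicate 2, as Eln was. These genes were picked for their likeness, so the shared high and low libraries follow from the choice. Whether such distances are unusual among 10511 genes was not tested.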

How the data were processed

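RNA of 6 libraries, 3 titled Het and 3 titled KO, was turned into cDNA with the SMART-Seq v4 kit for low input, per the labels' protocols. The labels name no molecular identifiers, so reads are not independent molecules. The submitters' processing notes list mm10, TopHat2 2.0.13, Bowtie2 2.2.1, HTSeq, Cufflinks, Cuffdiff, DESeq2 and FastQC. Their roles, the annotation and the strand setting are not stated in the labels. The table tested holds whole-number counts per gene as deposited. Deposited estimated counts for 23107 symbols were rounded and used as an alternative. Deposited FPKM values, scaled by the authors for gene length and library size, served to compare genes. Deposited rescaled counts were not used.

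The test was edgeR 4.0.16 quasi-likelihood under R 4.3.3 (TMM, default filter, two-sided, Benjamini-Hochberg over 14632 genes, threshold 0.05). Standard errors came from the F statistic, and 95% intervals from them with a median of 8.87 residual degrees of freedom. Ratios of counts (0.5 added) were compared with exact permutation tests. Alternatives were RLE factors, other filters, DESeq2 1.42.0, limma 3.58.1 (voom with quality weights, or trend on log2(FPKM + 1) and log2(FPKM + 0.1), a scale that understates changes of low genes), estimated counts, the replicate number as a block, a threshold of 0.1 and libraries left out. Counts of genes with groups apart under other settings, and the alternatives for companion genes, were added after seeing the data. Each library counted as 1 sample, and the smallest chi-square per degree of freedom between libraries was 86.2 over 15 pairs. That value cannot show whether libraries came from the same RNA or the same animal. The fit was tested on simulated counts of 14632 genes for this comparison, in which 136 of 200 genes changed 4-fold were called in the right direction, with 4 false calls. The simulation drew each gene independently, with the spread typical of its level and no outlying library. Its share of calls therefore need not hold in these data. Positions are from GENCODE M21 (GRCm38, the assembly of mm10). The members, companion lists and markers were chosen with earlier results of these data known. All 10 members are named, with the 2 companions of smallest p per list where fewer than 2 passed.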

Additional observations from a re-analysis of the deposited data

How the results depend on the processing

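No member passed the threshold in any of the 18 alternatives, nor did Pth1r in its 17. The number of genes past the threshold, 0 in edgeR (628 at an unadjusted p under 0.05), was 87 in DESeq2. It was 1 in limma-voom, in each of the 3 FPKM fits, without Het replicate 0 (0 to 1 over the libraries left out) and at a threshold of 0.1. Signs held in all 17 other fits for Fbn1, Fbn2, Eln, Fbln2, Fbln5, Efemp1, Efemp2 and Mfap5. The Fbln1 value, -0.027, ran from -0.13 to 0.039 over the libraries left out; it was 0.0083, 0.039, 0.037 and 0.010 without Het replicates 0 and 1 and KO replicates 0 and 1, each alone, and 0.052 without Het replicate 0 and KO replicate 1, the libraries with Xist near 0. In that last fit Mfap2 was at 0.17; with 1 library left out it ran from -0.32 to 0.020 (without Het replicate 0). The Ctsa value ran from -0.68 to 0.085 (without Het replicate 2). The log2 difference of the Fbn2 to Fbn1 ratio was 0.067 without Het replicate 1, 0.065 without KO replicate 1 and 0.076 without Het replicate 0 and KO replicate 1; it ran from -0.31 to 0.067 over the libraries left out one at a time. The cause of these changes was not tested. The number of members with groups apart was 5 with RLE factors, 5 or 6 with any 1 library left out (16.7% to 23.9% of all genes) and 3 in FPKM, which were Fbn2, Fbln2 and Efemp1 (8.58% of all genes). Replicate numbers share only a name: deviations of same-numbered libraries correlated at 0.17, 0.075 and 0.069 across genes, every library best with its own number, a hint from the data and not the design. With the number as a block, 0 genes passed.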
